A study of Mus musculus with 4 samples.

Results

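Interferon-stimulated genes were followed through 4 single-cell RNA libraries of mouse colonic organoid cultures ("colonoids"). The list held 43 gene symbols, of which 42 were found by symbol among the 30360 genes of the deposited gene table, and Mx2 was not analysed here. All 42 had at least 1 UMI (unique molecular identifier, a count of 1 captured RNA molecule) in the summed epithelial cells of every library, and since each molecule was counted near its 3' end, levels were not divided by gene length. Within the list, 21 genes formed a core antiviral set (Isg15, 5 Ifit genes, 5 Oas and Oasl genes, Rsad2, Cmpk2, Mx1, Irf7, Usp18, Ifi44, Rtp4, Zbp1, Dhx58 and Herc6), and the other 21 were counted apart from it.

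Interferons are secreted proteins that alert cells to viruses. Type I interferons bind the receptor made of Ifnar1 and Ifnar2, type III interferons bind Ifnlr1 together with Il10rb, and both receptors use the kinases Jak1 and Tyk2 to activate transcription factors such as Stat2, which joins Irf9 and binds response elements in the promoters of their target genes. Colonic epithelial cells are known to make and answer such signals, and many of the target genes encode proteins that bind, cut or sense viral RNA, hold back virus particles or modify other proteins with Isg15.

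The study compared colonic organoids with and without TNF receptor 2, the product of Tnfrsf1b, in the presence and absence of its ligand. The cultures were started from the distal colon of wildtype (C57BL/6) or Tnfr2-/- mice, which carry the knockout in all cells, and the labels put the mice at 16 weeks of age, where the methods of the study give another age. Cultures were grown in Matrigel to passage 5. Tumor necrosis factor (TNF) was added to some of them (20 ng/ml, starting 1 day after the passage and ending on day 6) and not to the others. Cells were harvested on day 7, and apoptotic cells were removed before the 3' libraries were made. Each group was 1 library. Series of 4 values give untreated wildtype, TNF-treated wildtype, untreated Tnfr2-/- and TNF-treated Tnfr2-/- cells, always in that sequence. There were no replicates, so no difference between groups was tested, and all intervals, given in parentheses, are 95% intervals of counting error only. The number of mice behind a culture is not stated in the labels.

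The libraries held 2589, 1469, 1117 and 980 cells with 87228093, 56063515, 53178273 and 44547639 UMIs. The deposited annotation put 1128, 1163, 1023 and 858 cells in 7 epithelial classes and 1430, 306, 90 and 122 cells in 4 mesenchymal classes. The mix of classes differed between libraries within both compartments: Progenitor.1 and Progenitor.2 held 546 and 62 cells of the untreated wildtype, 335 and 273 of the TNF-treated wildtype, 647 and 233 of untreated Tnfr2-/-, and 95 and 716 of TNF-treated Tnfr2-/-. Tnfrsf1b was read in epithelium at 4.17, 12.1, 1.82 and 6.89 CPM (counts scaled to 1000000 UMIs of the same cells) and in mesenchyme at 18, 19.2, 7.81 and 13.4 CPM. It was lower in the Tnfr2-/- library of each pair but not absent, and since the deleted stretch of the gene was not given and the libraries read 3' ends, these counts do not check the genotype. Markers of other cells were low in the epithelial sums. The 8 mesenchymal markers summed to 14.6, 23.2, 5.29 and 7.77 CPM there (9233 to 15785 CPM in mesenchyme), epithelial markers to 12182 to 15212 CPM (147 to 852 CPM in mesenchyme), and the 8 immune markers to 1.97, 4.11, 7.33 and 13.7 CPM. Of these, the pan-leukocyte gene Ptprc had 0 to 3 UMIs per library, while the macrophage gene Cd68 was at 1.81, 3.89, 4.23 and 12.4 CPM and the lymphocyte gene Nkg7 was read in the Tnfr2-/- libraries only (0, 0, 2.94 and 1.28 CPM), and the part of such cells in the results was not tested. Of the cell barcodes, 3 occurred in more than 1 library, in 6 cells.

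In epithelium the 42 genes were highest, as a group and nearly gene by gene, in the untreated Tnfr2-/- library. Their summed level was 947 (939–956), 816 (808–825), 1624 (1613–1635) and 1015 (1005–1025) CPM, and that of the core set was 255 (250.5–259), 172 (168–176), 657 (649.5–664) and 299 (294–305) CPM. None of these intervals overlapped within either sum. The other 21 genes summed to 693, 645, 967 and 716 CPM, so the core set differed more between libraries than the rest of the list. The untreated Tnfr2-/- library was the highest of the 4 for 37 of the 42 genes and for 20 of the 21 core genes, against 30.9% of the 6431 genes that reached 20 CPM in epithelium. Only 25 of the 42 genes reached that level there, so the share rests on a set filtered otherwise than the list. Untreated Tnfr2-/- was the lowest for 0 of the 42 genes, while the TNF-treated wildtype was the lowest for 20. The share of all genes lowest in each library was not counted, so these counts by lowest library only describe the list. The 5 genes highest elsewhere were Ifi27, Oasl1, Irf1 and Dtx3l (TNF-treated Tnfr2-/-) and Lgals3bp (TNF-treated wildtype).

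**Figure D1:**
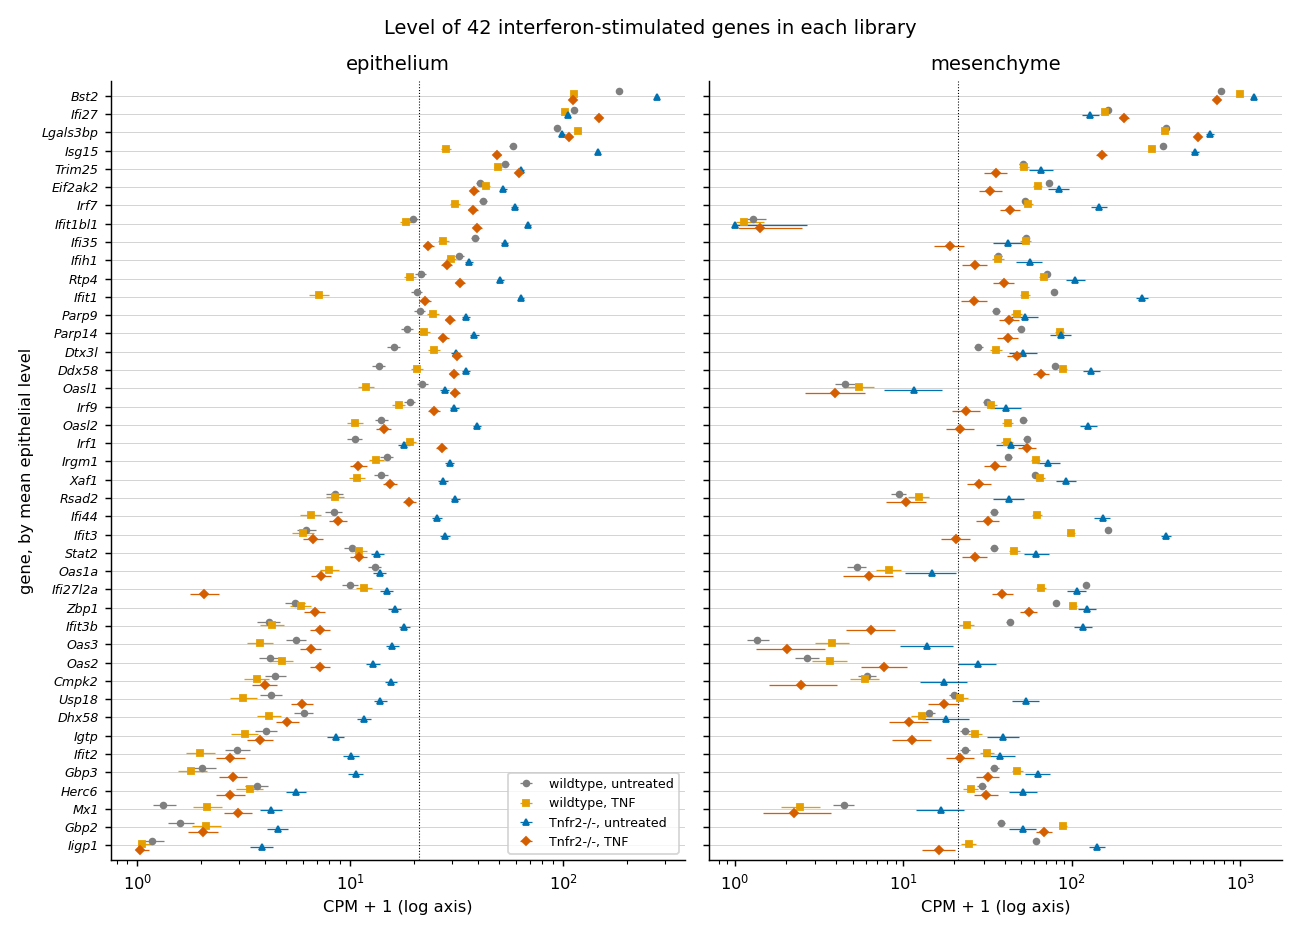
Level of each of the 42 genes in epithelium (left) and mesenchyme (right), as CPM + 1 on a log axis, with 1 symbol per library and bars for exact Poisson intervals, genes ordered by mean epithelial level and a dotted line at 20 CPM. The untreated Tnfr2-/- library is the rightmost symbol for 37 genes in epithelium and for 36 in mesenchyme.

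The genes of highest epithelial level came from several roles. Bst2 (tetherin), a membrane protein that holds budding virus particles at the cell surface, was read at 183 (179–187), 112 (109–115), 276 (272–281) and 109.9 (107–113) CPM. It was highest in untreated Tnfr2-/-, and its intervals in the TNF-treated libraries overlapped. Isg15, a ubiquitin-like protein that is attached to other proteins, was at 57.1 (55–59.2), 27.2 (25.6–28.8), 145 (142–148) and 48 (45.9–50.2) CPM. No pair of its intervals overlapped, and the order ran from untreated Tnfr2-/- over untreated wildtype and TNF-treated Tnfr2-/- to TNF-treated wildtype. Ifit1, which binds viral RNA, was at 19.6 (18.4–20.8), 6.12 (5.39–6.92), 62.5 (60.4–64.8) and 21.4 (20.0–22.9) CPM. Its untreated wildtype and TNF-treated Tnfr2-/- levels overlapped, and the TNF-treated wildtype was the lowest. Its relative Ifit1bl1 was at 18.7 (17.5–19.9), 17.3 (16.1–18.6), 67.5 (65.2–69.8) and 38.6 (36.7–40.6) CPM. Both Tnfr2-/- libraries lay above both wildtype libraries, which overlapped each other. Rtp4, a chaperone of membrane receptors that interferon induces, was at 20.5 (19.2–21.8), 18.1 (16.8–19.5), 49.8 (47.8–51.7) and 31.8 (30.0–33.6) CPM, in the same order as Ifit1bl1 and with the same overlap of the wildtype libraries.

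The genes just described can be placed in the genome. In GENCODE M21 (GRCm38), Isg15 (ENSMUSG00000035692) lies on the minus strand of chromosome 4, at 156199424 to 156200818. Ifit1 (ENSMUSG00000034459; plus strand) and Ifit1bl1 (ENSMUSG00000079339; minus strand) lie close together on chromosome 19, at 34640871 to 34650009 and 34592891 to 34601956. Bst2 (ENSMUSG00000046718) is on the minus strand of chromosome 8, at 71534255 to 71537456, and Rsad2 (ENSMUSG00000020641) on the minus strand of chromosome 12, at 26442746 to 26456452. Promoter sequence from RefSeq (GRCm38.p6, 250 bases before to 50 after a start site) was matched by symbol for 31 of the 42 genes. The letters of the interferon-stimulated response element (GAAA, any 2 bases and GAAA again, on either strand) were found in the windows of 17 of these 31 genes (54.8%), against 1079 of all 27025 genes of the table (3.99%). The share was 53.3% (8 of 15) for core genes and 56.2% (9 of 16) for the others, so it was about the same in both. The gamma-activated site (TTCC, any base, GGAA) was found in 2 of 31 (6.45%, all genes 1.35%) and the NF-kB site (GGG, any 3 bases, TTCC) in 5 of 31 (16.1%, all genes 6.31%). Both were searched on both strands. Of 16 NF-kB target genes of a list used below, 0 held the response element and 8 (50%) the NF-kB site. No match was found in the windows of Irf7, Ifi44, Oasl1 and Oasl2, among others, which says only that these letters are not in the 300 bases searched. A match is a description of letters and says nothing of binding. The 150 bases before the start site are shown for 5 genes whose levels the comparisons below turn on, 5′ to 3′ along the gene's strand with the response elements in capitals (overlapping matches joined).
Isg15 (chr4:156200819-156200968, minus strand): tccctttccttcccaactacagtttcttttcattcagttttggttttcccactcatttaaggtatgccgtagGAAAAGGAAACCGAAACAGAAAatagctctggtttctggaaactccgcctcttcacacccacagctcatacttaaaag
Ifit1 (chr19:34640739-34640888, plus strand): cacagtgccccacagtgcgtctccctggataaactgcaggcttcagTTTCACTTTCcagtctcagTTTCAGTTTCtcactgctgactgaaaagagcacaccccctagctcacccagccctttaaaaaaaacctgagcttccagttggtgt
Ifit1bl1 (chr19:34601969-34602118, minus strand): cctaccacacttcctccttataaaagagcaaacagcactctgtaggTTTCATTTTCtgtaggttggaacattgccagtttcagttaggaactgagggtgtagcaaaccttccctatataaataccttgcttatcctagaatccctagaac
Rsad2 (chr12:26456453-26456602, minus strand): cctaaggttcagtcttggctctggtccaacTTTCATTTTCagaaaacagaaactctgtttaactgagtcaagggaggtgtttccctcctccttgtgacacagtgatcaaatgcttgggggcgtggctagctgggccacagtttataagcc
Bst2 (chr8:71537473-71537622, minus strand): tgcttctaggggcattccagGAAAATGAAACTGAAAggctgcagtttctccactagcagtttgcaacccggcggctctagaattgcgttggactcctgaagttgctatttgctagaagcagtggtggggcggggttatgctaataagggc
In these stretches Isg15 holds 3 overlapping matches, Ifit1 2 separate ones, Bst2 2 overlapping ones, and Ifit1bl1 and Rsad2 1 each.

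The other genes of high level spanned a smaller range between libraries than Ifit1 and Isg15. Irf7, the factor that amplifies interferon production, was at 41 (39.3–42.9), 30.2 (28.6–31.9), 58.2 (56.1–60.3) and 36.8 (35–38.8) CPM, with no overlap between libraries. Ifi35, an interferon-induced protein that binds other regulators, was at 37.7 (36–39.4), 26.4 (24.9–28), 52.3 (50.3–54.3) and 22.3 (20.9–23.8) CPM, also without overlap, and its lowest level was in TNF-treated Tnfr2-/-. The highest library held 1.93 times the lowest level of Irf7 and 2.34 times that of Ifi35, against 10.2 times for Ifit1 and 5.34 times for Isg15. Ifih1 (the sensor of long double-stranded RNA) was at 31.6 (30.1–33.2), 28.8 (27.1–30.4), 35.2 (33.6–36.9) and 27.5 (25.8–29.1) CPM. Eif2ak2 (the kinase that halts translation on viral RNA) was at 39.6 (37.8–41.3), 42.3 (40.3–44.3), 51.3 (49.4–53.3) and 37.3 (35.4–39.2) CPM. Only its untreated Tnfr2-/- level stood clear of the others, whose neighbours in the order overlapped. Trim25, a ubiquitin ligase that acts on the sensor Ddx58, was at 52.6 (50.6–54.6), 48.4 (46.3–50.5), 62.6 (60.4–64.8) and 61.1 (58.7–63.6) CPM, with overlap between the Tnfr2-/- libraries. A pair of highly read genes did not follow the pattern. Ifi27, a small membrane protein, was at 112 (109–115), 101 (98.3–104), 104 (102–107) and 146 (142–149.7) CPM, highest with TNF in Tnfr2-/-. Lgals3bp, a secreted galectin-binding protein, was at 93 (90.4–95.7), 117 (113–120.1), 98 (95.3–101) and 105 (102–108) CPM, highest with TNF in wildtype.

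Another 13 genes reached 20 CPM in the epithelium of at least 1 library. The Parp9 and Dtx3l proteins, which work as a complex on chromatin, were read at 20.3, 23.5, 34.1 and 28.4 CPM and 15, 23.8, 30.4 and 30.9 CPM, and Parp14, another ADP-ribosyltransferase, at 17.5, 21.3, 37.4 and 26.3 CPM. The sensor Ddx58 (RIG-I) was at 12.6, 19.7, 34.1 and 29.9 CPM. For Parp9, Parp14 and Ddx58 the untreated Tnfr2-/- library was the highest, and for Dtx3l both Tnfr2-/- libraries were level. Of the oligoadenylate synthetase-like genes, Oasl1 was at 20.8, 10.9, 26.8 and 30.2 CPM and Oasl2 at 13, 9.55, 38.4 and 13.4 CPM. Irf9, which binds the response element together with Stat2, was at 18.1, 15.9, 29.9 and 23.8 CPM and Irf1, a factor shared with interferon gamma signaling, at 9.52, 18, 16.9 and 26 CPM. Irf1 was higher in the TNF library of each genotype, unlike most of the list. The GTPase Irgm1 was at 13.8, 12.3, 28.4 and 9.93 CPM, the apoptosis regulator Xaf1 at 13, 9.79, 26.3 and 14.4 CPM and Ifi44 at 7.39, 5.54, 24.7 and 7.79 CPM. Rsad2 (viperin), which makes a nucleotide that stops viral polymerases, was at 7.45, 7.50, 30.2 and 17.9 CPM, and Ifit3, which works with Ifit1, at 5.23, 5.01, 26.9 and 5.71 CPM. For Ifit3 the untreated Tnfr2-/- library stood alone, since the intervals of the other 3 overlapped.

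The mesenchymal cells carried more of these transcripts than the epithelium. Of the 42 genes, 28 were higher in mesenchyme than in epithelium in all 4 libraries (36.9% of all genes at 20 CPM in either), and 2, Ifit1bl1 and Oasl1, were higher in epithelium in all 4. The summed levels in mesenchyme were 3200.2 (3181–3219), 3360.3 (3331–3390.1), 5461 (5363–5560.2) and 2605 (2559–2651) CPM for the 42 genes and 1023 (1012–1033), 917 (901–932), 2213 (2151–2276) and 491 (471–511) CPM for the core set, and the untreated Tnfr2-/- library was again the highest, for 36 of 42 genes (18.0% of 7081 genes). Both shares in parentheses cover only genes that reached 20 CPM, as 35 of the 42 did in mesenchyme and all but 5 in either compartment. A set of 12 genes reached 20 CPM in mesenchyme and not in epithelium. Among the GTPases that act on membranes around microbes, Gbp2 was at 36.8, 88.1, 50.1 and 67.5 CPM in mesenchyme, Gbp3 at 33.7, 46.4, 61.6 and 30.6 CPM, Igtp at 22.2, 25.8, 38.1 and 10.3 CPM and Iigp1 at 60.4 (57.9–63.1), 23.4 (21–26), 140.1 (125–157) and 15.3 (12–19.2) CPM. Iigp1 (ENSMUSG00000054072) lies on the plus strand of chromosome 18, at 60376027 to 60392634. Its epithelial levels were far lower, at 0.179 (0.0818–0.339), 0.0484 (0.00586–0.175), 2.84 (2.40–3.35) and 0.0251 (0.000637–0.140) CPM. In mesenchyme its levels in the 4 libraries did not overlap, with both TNF libraries below both untreated ones. Zbp1, a sensor of Z-form nucleic acid, was at 79.5, 101, 123 and 54.5 CPM, Stat2 at 33.7, 44.5, 60.6 and 25.6 CPM and Ifi27l2a at 121, 64.6, 106 and 37.7 CPM. The Isg15 protease Usp18 was at 19, 20.7, 52.4 and 16.3 CPM and the Isg15 ligase Herc6 at 28.2, 24.1, 50.5 and 30.0 CPM. Of the RNA-binding effectors, Ifit2 was at 22.2, 30.4, 36.3 and 20.7 CPM, Ifit3b at 41.7, 22.8, 116 and 5.45 CPM and the synthetase Oas2 at 1.67, 2.65, 26.6 and 6.71 CPM. Of these 12 genes, Gbp2 was highest in TNF-treated wildtype, Ifi27l2a in untreated wildtype and the other 10 in untreated Tnfr2-/-. The remaining 5 genes (Oas1a, Oas3, Mx1, Cmpk2 and Dhx58) stayed below 20 CPM in both compartments of every library, between 0.318 and 17 CPM. Oas1a shares its 3' end with Oas1g (96.7% identity over the last 300 bases), so its counts are uncertain, and Igtp and Irgm2 overlap on the same strand (7974 bases), as do Irf9 and Rnf31 (123 bases).

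The comparison of the genotypes without TNF asked how the list stood when the receptor was missing and no TNF was added. A gene counted as different where its level differed by at least 2-fold on the log2(CPM + 1) scale and reached 20 CPM in at least 1 library of the pair. A gene that reached it in 1 library only is bound to differ in that direction, so counts and medians over the genes that reached 20 CPM describe them and are no support, and in epithelium all 42 genes are given as well. In epithelium 10 of the 24 genes that could be compared were higher in Tnfr2-/-, and 0 were lower. Of all 6021 genes compared, 2.42% were higher and 3.59% lower. The median log2 difference of the 24 genes was 0.97 (all genes 0.11), and that of the 10 core genes among them, 8 of which were higher, was 1.55. Of the 24 genes 12 reached 20 CPM in untreated Tnfr2-/- only, 8 of the 10 higher ones among them. With no minimum 22 of all 42 genes were higher and 0 lower (2.15% and 2.73% of 19358 genes), 41 of 42 lay above 0, and the median was 1.07 (all genes 0.03). The 10 genes were Ifit3 (2.17), Rsad2 (1.89), Ifit1bl1 (1.80), Ifit1 (1.63), Ifi44 (1.62), Oasl2 (1.49), Ddx58 (1.37), Isg15 (1.33), Rtp4 (1.24) and Parp14 (1.05), with log2 differences in parentheses. Parp14 was just above the limit of 1, and Irgm1 (0.98), Dtx3l (0.97) and Xaf1 (0.97) were just below it. Without the 5% of cells of each library with the highest core level the count was 6, and with Progenitor.1 and Progenitor.2 weighted equally it was 4. The libraries of this comparison also enter the TNF comparisons below.

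With TNF, 3 of 19 genes were higher in Tnfr2-/- epithelium and 0 lower, where 5.04% of 6073 genes were higher and 6.37% lower. They were Ifit1 (1.65), Oasl1 (1.39) and Ifit1bl1 (1.11). All 3 reached 20 CPM in Tnfr2-/- only. The median of the 19 genes was 0.36 (all genes -0.10). With no minimum 4 of all 42 genes were higher and 1 lower (3.01% and 5.16% of 19362 genes), and the median was 0.35. Ifit1 and Ifit1bl1 were higher in Tnfr2-/- in both treatments, which 1.13% of genes were. Within Progenitor.1 and within Progenitor.2 the count was 0 and the medians were -0.15 and -0.08.

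The TNF comparisons asked how the genes stood in the treated culture of each genotype. In Tnfr2-/- epithelium 8 of 25 genes were lower with TNF and 0 higher, against 7.81% and 5.55% of 6143 genes. The median was -0.63 (all genes -0.12), and 5 of 10 core genes were among the 8. Of the 8 genes 4 reached 20 CPM without TNF only. With no minimum 21 of all 42 genes were lower and 0 higher (4.76% and 2.8% of 19281 genes), with a median of -0.97 (all genes -0.03). The 8 genes were Ifit3 (-2.06), Isg15 (-1.57), Ifi44 (-1.55), Ifit1 (-1.50), Oasl2 (-1.45), Irgm1 (-1.43), Bst2 (-1.32) and Ifi35 (-1.19). With Progenitor.1 and Progenitor.2 weighted equally the count was 15. In wildtype 1 of 14 genes, Isg15 (-1.04), was lower and 0 higher, against 1.08% and 2.54% of 5833 genes, with a median of -0.14 (all genes 0.04). Ifit1 in wildtype had a larger difference (-1.53) but did not reach 20 CPM. With no minimum these 2 of all 42 genes were lower and 0 higher (0.75% and 1.94% of 19194 genes), with a median of -0.15 (all genes 0.03). Isg15 lay just past the limit of 2-fold in wildtype. The wildtype count was 0 when the 4 cells with Ifnb1 UMIs described below were left out, 2 of them untreated wildtype cells. Isg15 was lower with TNF in both genotypes, as were 0.0721% of genes.

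**Figure D2:**
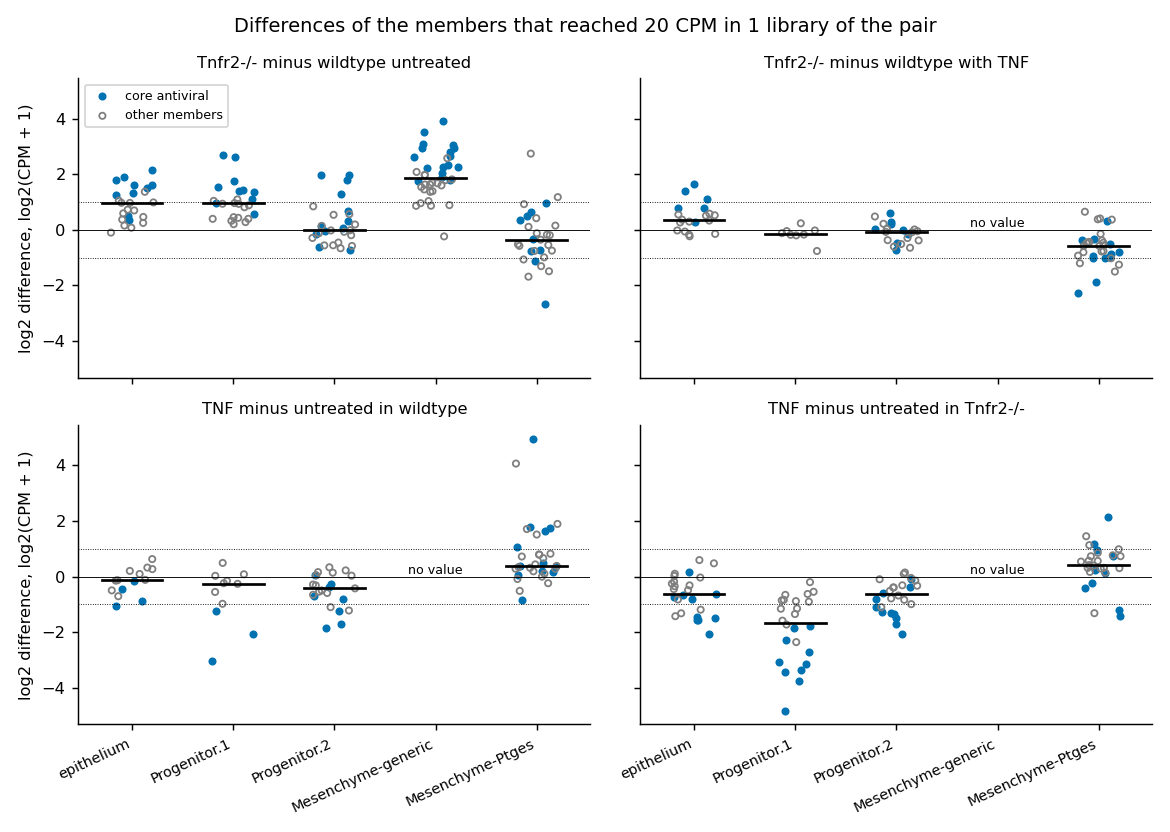
Log2 differences of the genes that reached 20 CPM in 1 library of the pair, for the 4 comparisons and for pooled epithelium, Progenitor.1, Progenitor.2, Mesenchyme-generic and Mesenchyme-Ptges (filled points core genes, open points the other genes, bars the medians, dotted lines 2-fold). In Progenitor.1 of Tnfr2-/- the TNF differences lie below 0 with a median of -1.66, and in Mesenchyme-generic the untreated genotype differences have a median of 1.85.

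The core set was summed in each deposited class that held at least 20 cells of a library. In Progenitor.1, the largest epithelial class of 3 libraries, it was at 234 (228–239.8), 77.1 (73.1–81.2), 665 (656–673) and 85.4 (77.6–93.8) CPM, so the untreated libraries lay above both TNF libraries. In Progenitor.2 it was at 652 (614–692), 377 (366–387), 700.4 (684–717) and 336 (329.8–342) CPM. There the untreated libraries lay above the TNF libraries too, while the untreated genotypes differed little. Progenitor.3 had the lowest levels, at 49.1 CPM (38.4–61.8), 44.4 CPM (35–55.6) and 155 CPM (123–192) in the first 3 libraries. Of the secretory cells, the class Secretory-Reg4-Spdef-Lyz1 was at 137, 57.2 and 244 CPM in the same 3 libraries, Secretory-Reg4-Ang4 (TNF-treated wildtype only) at 143 CPM, and enteroendocrine cells at 101 CPM, 154 CPM and, in TNF-treated Tnfr2-/-, 166 CPM. Absorptive cells were compared in no pair, as only the untreated wildtype held at least 20 of them, at 295 CPM (287 to 304). In each epithelial class with a value in both untreated libraries (Progenitor.1, Progenitor.2, Progenitor.3 and Secretory-Reg4-Spdef-Lyz1) the Tnfr2-/- level was the higher, and for Progenitor.2 the intervals were close (614 to 692 against 684 to 717) and overlapped.

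**Figure D3:**
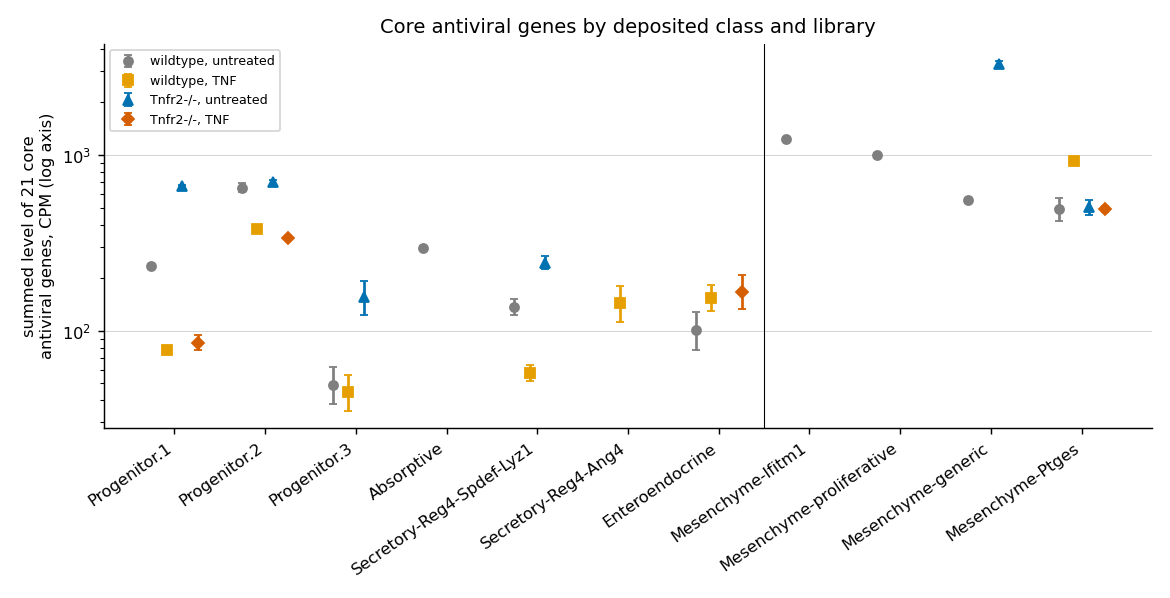
Summed level of the 21 core antiviral genes, in CPM on a log axis, by deposited class and library, with exact Poisson intervals as bars and no symbol where a class had fewer than 20 cells. In Progenitor.1 the untreated Tnfr2-/- library is at 665 CPM and the TNF-treated one at 85.4 CPM, and the highest value of all is 3314 CPM in Mesenchyme-generic of untreated Tnfr2-/-.

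In Progenitor.1 without TNF, 10 of 24 genes were higher in Tnfr2-/- and 0 lower (1.15% and 1.1% of 5913 genes), with a median of 0.95. Of the 10 genes 8 reached 20 CPM in untreated Tnfr2-/- only. In Tnfr2-/-, 16 of 24 genes were lower with TNF than without and 0 higher (0.933% and 1.08% of 6002 genes), the 10 core genes that could be compared all among them, with medians of -1.66 for the 24 (all genes -0.03) and -3.12 for the 10. Of the 16 genes 14 reached 20 CPM without TNF only, these 10 core genes among them, so the minimum fixed their direction. With no minimum 31 of all 42 genes were lower and 0 higher (1.26% and 1.06% of 17046 genes), 41 lay below 0, and the median was -1.82 (all genes -0.04). Isg15 was at 58.6, 13.3, 153 and 13.3 CPM in Progenitor.1. Its TNF-treated levels were equal within their intervals and far below both untreated ones. Ifit1 was at 22.6, 1.86, 62.1 and 3.71 CPM, Ifit3 at 3.40, 0.438, 27.5 and 0 CPM and Irf7 at 29.9, 12, 59 and 6.05 CPM. Each of them was highest in untreated Tnfr2-/- and far lower in the TNF-treated library of the same genotype. Ifit3 had 0 UMIs there, which with 3 counts (0.585 CPM) as the floor makes it at least 47.0-fold lower, and the medians above are the same with Ifit3 at this floor. In wildtype 3 of 11 genes were lower with TNF and 0 higher (0.615% and 1.84% of 5855 genes), and they were Ifit1 (-3.04), Isg15 (-2.06) and Irf7 (-1.25). All 3 reached 20 CPM without TNF only. With TNF in both genotypes no core gene reached 20 CPM in Progenitor.1, and 0 of the other 8 genes differed 2-fold (1.29% higher and 2.04% lower of 6066 genes). The TNF-treated Tnfr2-/- library held 95 Progenitor.1 cells, so its low levels rest on few cells.

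Progenitor.2 differed from Progenitor.1 in the genotype comparison. Without TNF 4 of 28 genes were higher in Tnfr2-/- (4.32% of 5900 genes) and 0 lower (3.66%), and the median was -0.02. The 4 were Ifit3b (1.97), Ifit1 (1.96), Ifit3 (1.78) and Ifi44 (1.28). All 4 reached 20 CPM in untreated Tnfr2-/- only, so the minimum fixed their direction. Isg15, at 201, 61.1, 132 and 54.4 CPM, was higher in wildtype here (-0.61), the opposite of its direction in Progenitor.1. With TNF, 5 of 23 genes were lower in wildtype (3.18% of 5749 genes) and 0 higher (4.28%). They were Zbp1 (-1.83), Isg15 (-1.70), Ifit1bl1 (-1.24), Xaf1 (-1.22) and Ifi35 (-1.10), and 2 of the 5 reached 20 CPM without TNF only. In Tnfr2-/- 8 of 26 were lower (1.14% of 5687 genes), 7 of them core genes, and 0 higher (0.844%). Of these 8 genes 4 reached 20 CPM without TNF only. Between the TNF-treated genotypes 0 of 21 differed (2.99% higher and 4.93% lower of 5718 genes). The untreated wildtype held 62 Progenitor.2 cells.

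In mesenchyme the core set was at 1235 CPM in Mesenchyme-Ifitm1 and 995 CPM in Mesenchyme-proliferative, classes that held at least 20 cells of the untreated wildtype only. The class named Mesenchyme-generic was at 551 CPM (536–567) in untreated wildtype and 3314 CPM (3216–3414) in untreated Tnfr2-/-. Of 38 genes compared between the untreated libraries, 33 were higher in Tnfr2-/- and 0 lower, where 5.9% and 2.32% of 6341 genes were, and all 17 core genes compared were among the 33. The median was 1.85 for the 38 genes (all genes 0.11) and 2.61 for the 17. Of the 33 genes 10 reached 20 CPM in untreated Tnfr2-/- only, 9 of them core genes, so the minimum fixed the direction of these. Isg15 was at 161 and 768 CPM in the untreated wildtype and untreated Tnfr2-/- cells of this class, Ifit3 at 65.6 and 559 CPM, Irf7 at 35.4 and 226 CPM and Bst2 at 603 and 1555 CPM. The 5 genes not past 2-fold were Ifi27, Irf1, Irf9, Ifi35 and Trim25. The class held 393 cells in untreated wildtype and 51 in untreated Tnfr2-/-, and too few with TNF to give a value.

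The class Mesenchyme-Ptges, which alone held at least 20 cells of all 4 libraries in mesenchyme, showed no such difference. Its core set was at 490.5 (419–570.5), 921 (905–937), 504 (457–555) and 491 (471–511) CPM, and the TNF-treated wildtype stood above the other 3, whose intervals overlapped. In wildtype 9 of 33 genes were higher with TNF and 0 lower (13.4% and 11% of 6917 genes), among them Isg15 (1.77), Ifi44 (1.75), Gbp2 (1.71) and Zbp1 (1.63). Of the 9 genes 4 reached 20 CPM with TNF only. Ifit2, also among the 9, had 0 UMIs in the untreated cells and was at least 3.44-fold higher with TNF (floor of 3 counts, 8.76 CPM). In Tnfr2-/- 4 of 29 were higher with TNF (5.08% of 6220 genes) and 3 lower (3.63%). Of these, 3 of the 4 higher and 2 of the 3 lower genes reached 20 CPM in 1 library only. Between genotypes 2 of 29 were higher in untreated Tnfr2-/- and 6 lower (10.7% and 14% of 6791 genes), and with TNF 0 of 33 were higher and 8 lower (6.13% and 8.52% of 6480 genes). The 2 higher genes, 4 of the 6 lower ones and 4 of the 8 reached 20 CPM in 1 library only, so the minimum fixed their direction. The untreated libraries had 34 and 37 cells of this class.

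With the mesenchymal classes pooled, 10 of 35 genes were higher in untreated Tnfr2-/- than in untreated wildtype and 0 lower (3.84% and 3.95% of 6535 genes), and the median was 0.75 (all genes -0.09). Of the 10 genes 3 reached 20 CPM in untreated Tnfr2-/- only. With TNF in Tnfr2-/- 22 of 35 were lower and 0 higher (6.74% and 5.71% of 6354 genes), 12 of the 14 core genes among them. Of the 22 genes 8 reached 20 CPM without TNF only, 5 of them core genes. All 122 TNF-treated Tnfr2-/- cells were Mesenchyme-Ptges, and within that class 4 of 29 genes were higher with TNF and 3 lower. With TNF in wildtype 1 was higher (Gbp2, 1.24) and 1 was lower (Iigp1, -1.33) of 33 (6.03% and 7.21% of 6683 genes). Between the TNF-treated genotypes 7 of 33 were lower in Tnfr2-/- and 0 higher (8.42% and 6.09% of 6481 genes). Of the 7 genes 4 reached 20 CPM in TNF-treated wildtype only. Iigp1 was lower with TNF in both genotypes, as were 3.51% of genes. Since the classes of the pooled mesenchyme differed between libraries (the untreated wildtype had 892 of its 1430 cells in Mesenchyme-Ifitm1, which had 1 cell or 0 elsewhere), class and treatment cannot be told apart in these pooled counts.

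Whether a subset of cells carried the genes was examined after drawing 5000 UMIs at random from each cell. The 405 cells below that depth did not enter, 290 of them epithelial cells of the TNF-treated wildtype. Most of these 290 were of Secretory-Reg4-Ang4, a class of 246 cells found in that library only. Its other classes lost 36 Progenitor.3, 5 Secretory-Reg4-Spdef-Lyz1, 3 Progenitor.2, 2 enteroendocrine and 0 Progenitor.1 cells, and absorptive cells numbered 19 in all. The epithelial values of this library at that depth therefore hardly cover Secretory-Reg4-Ang4, and no share is given for that class. A cell was called carrying where it had UMIs of at least 3 different core genes. In epithelium 123 of 1085 cells (11.3%, exact Clopper-Pearson interval 9.51–13.4), 78 of 873 (8.93%, 7.13–11), 232 of 990 (23.4%, 20.8–26.2) and 122 of 846 (14.4%, 12.1–17) carried them. The untreated Tnfr2-/- share stood above the other 3. Without thinning the shares were 40.2%, 30.5%, 56.5% and 59.4%, in another order, with cells of different depth set side by side. At 5000 UMIs 62.7%, 63.9%, 47.4% and 48.0% of epithelial cells had no core UMI at all. The cells near the limit numbered 87, 65, 105 and 94 with 2 genes and 52, 37, 65 and 50 with 3, so the class is a range and not a separate cell type. Cells with 10 or more core genes numbered 3, 1, 30 and 1, and the most in any cell was 19 of 21, in untreated Tnfr2-/-. Before thinning the median depth of carrying epithelial cells was 40651, 33471, 42505 and 32354 UMIs against 37660.5, 39597, 41776 and 38018.5 in the others. So in pooled epithelium they were the deeper ones in the untreated libraries and the shallower ones in the TNF libraries. Within Progenitor.1 the order differed, at 41618, 32620, 47169 and 50994 UMIs (the last from 2 cells) against 43867, 44751, 46666 and 42714.5.

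**Figure D4:**
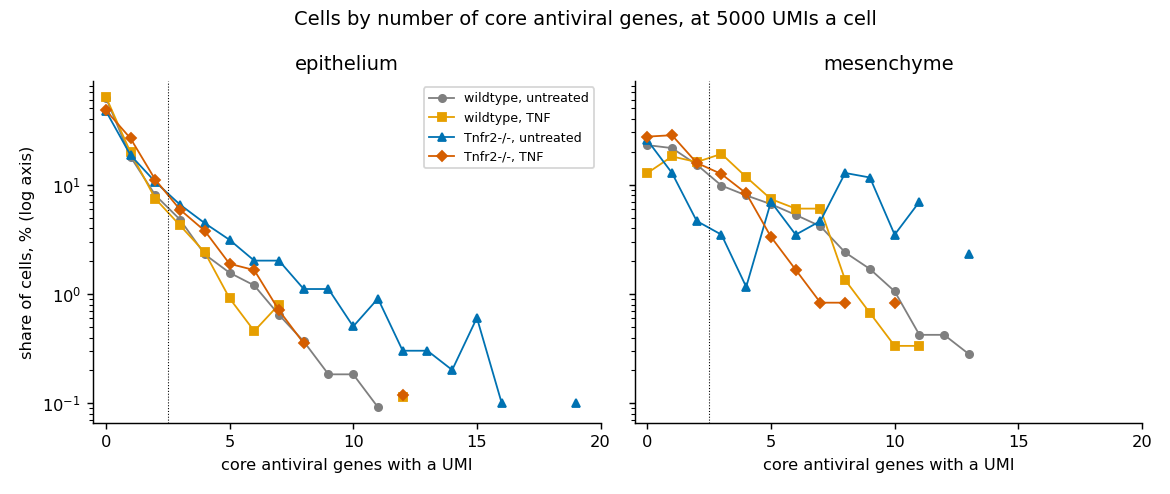
Share of epithelial (left) and mesenchymal (right) cells, in percent on a log axis, by the number of core antiviral genes with a UMI after thinning each cell to 5000 UMIs, with 1 line per library and a dotted line before 3 genes. The untreated Tnfr2-/- epithelium has the longest tail (30 cells with 10 or more genes), and 47.4% to 63.9% of epithelial cells sit at 0.

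The core UMIs were spread unevenly over cells. The 5% of epithelial cells with most of them held 50.1%, 44.8%, 53.4% and 38.4%, where the same measure, each list ranked by its own cells, gave 21.5%, 18.1%, 21.5% and 17.7% for the other 21 genes, 22.6%, 18.7%, 24.5% and 21.9% for NF-kB targets and 29.1%, 28.6%, 26.1% and 58.0% for cell cycle genes. These shares depend on the level of a list as well as on its spread. Before thinning, the median epithelial cell had 59.3, 39.4, 147 and 132 CPM of the core set and the highest cell 9037, 5472, 26299 and 10058 CPM. So in the TNF-treated Tnfr2-/- library the median cell lay near that of the untreated Tnfr2-/- library, while the summed levels (299 and 657 CPM) were apart.

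By class, carrying cells made up 10.1%, 4.78%, 23.8% and 2.13% of Progenitor.1 (55 of 546, 16 of 335, 153 of 644 and 2 of 94 cells), and 26.8%, 21.1%, 28.0% and 16.3% of Progenitor.2 (15 of 56, 57 of 270, 63 of 225 and 116 of 710 cells). The Progenitor.1 shares of untreated Tnfr2-/- (20.5 to 27.2) and untreated wildtype (7.68 to 12.9) did not overlap, whereas the Progenitor.2 shares of these libraries did (22.2 to 34.4 and 15.8 to 40.3). In Progenitor.3 the shares were 1 of 63 cells (1.59%), 0 of 112 (0%, interval up to 3.24%) and 1 of 30 (3.33%) in the first 3 libraries, the lowest of the progenitor classes in each, and 32, 36 and 21 cells of this shallow class had been left out. All these classes are epithelial and none is known to lack the genes, so no share could be set as background. Absorptive cells of the untreated wildtype carried at 15.1% and Secretory-Reg4-Spdef-Lyz1 cells at 5.56%, 1.89% and 9.68% in the first 3 libraries. Of enteroendocrine cells 0 of 31 carried the genes in untreated wildtype, which allows up to 11.2%, 2 of 29 with TNF, and 4 of 27 in TNF-treated Tnfr2-/-. In mesenchyme 40.2%, 53.0%, 57.0% and 28.3% of cells carried the genes. In the generic class the share was 27.8% (109 of 392, 23.4 to 32.5) in untreated wildtype and 88.2% (45 of 51, 76.1 to 95.6) in untreated Tnfr2-/-, so nearly all generic cells of untreated Tnfr2-/- carried them. In Mesenchyme-Ptges it was 25%, 53.4%, 8.82% and 28.3%.

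The other 21 genes were not used to choose the carrying cells, so their level in these cells is a separate reading from the same cells. In Progenitor.1 of untreated Tnfr2-/- they summed to 2282 and 650.1 CPM in carrying and other cells (log2 difference 1.81), and in untreated wildtype to 2073 and 565 CPM (1.87). Bst2 was at 725 and 199.6 CPM in untreated Tnfr2-/- and at 825 and 187 CPM in untreated wildtype. In both libraries the carrying cells were the higher for the sum and for Bst2. Cxcl10, a chemokine that interferon and NF-kB both induce and that is not on the list, was at 429 and 22.4 CPM and 607 and 18.7 CPM in the same order, the largest difference of those named here. It came from a part of the cells: 16.3% of carrying and 6.52% of other cells had a Cxcl10 UMI in untreated Tnfr2-/-, and 30.9% and 5.09% in untreated wildtype. Other interferon targets summed to 4145 and 1327 CPM and 3255 and 1162 CPM. The surface protein Ly6a, itself an interferon target and a marker of regenerating epithelium, was at 1739 and 624 CPM and 2785 and 944 CPM. NF-kB targets differed less and in opposite directions (715 and 589 CPM and 382 and 521 CPM), and cell cycle genes were near level (1281 and 1522 CPM and 1215 and 1248 CPM). Mesenchymal markers in the carrying and other cells were at 2.61 and 2.04 CPM and 3.64 and 9.78 CPM and immune markers at 7.84 and 4.48 CPM and 3.64 and 1.63 CPM, so markers of both other lineages were low in carrying cells.

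**Figure D5:**
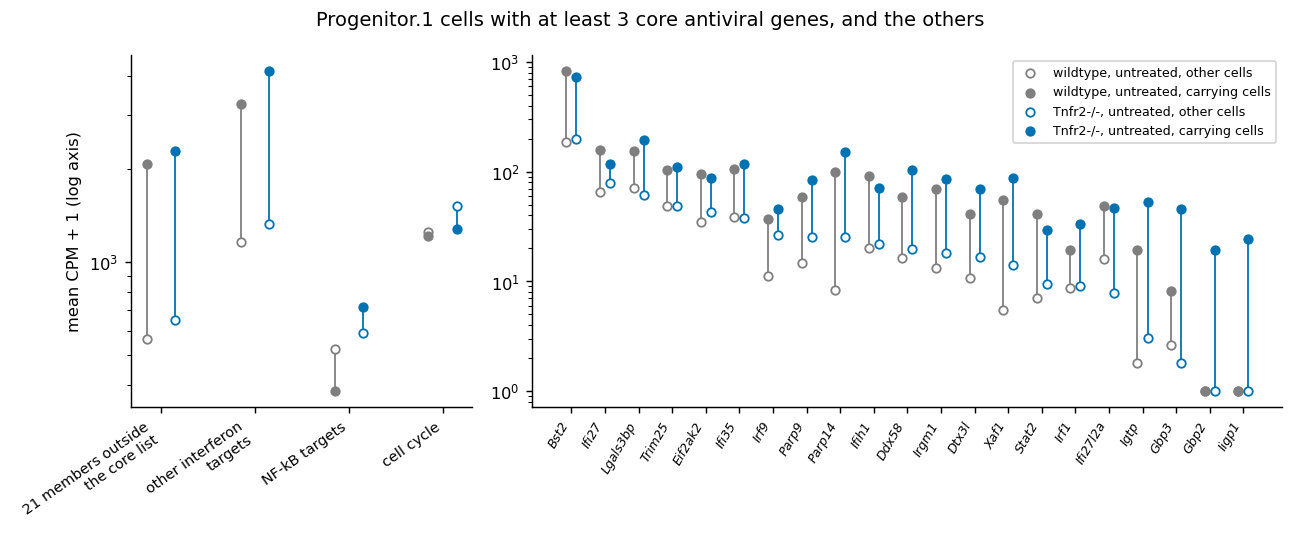
Mean level, as CPM + 1 on a log axis after thinning to 5000 UMIs, in Progenitor.1 cells with at least 3 core genes (filled) and in the other Progenitor.1 cells (open) of the untreated libraries, for 4 summed lists (left) and the 21 genes outside the core set (right). Untreated wildtype has 55 carrying and 491 other cells and untreated Tnfr2-/- 153 and 491, and the carrying cells are the higher in both libraries for 19 of the 21 genes, Gbp2 and Iigp1 being at 0 in wildtype. The share of all genes higher in carrying cells was not counted, so the 19 of 21 only describes these genes.

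Across single Progenitor.1 cells of untreated Tnfr2-/- (644 cells of 1 library at equal depth), the level of a gene and that of the remaining core set correlated at 0.77 for Isg15, 0.67 for Ifit1, 0.59 for Ifit3, 0.59 for Bst2 and 0.58 for Ifit1bl1 (Pearson correlation of log values, a description of these cells). Irf9 (0.12) and Ifi27 (0.11) were near the proliferation gene Mki67 (-0.07) at the other end. In the untreated wildtype (546 cells) Isg15 was at 0.63 and Ifit1 at 0.47, and in the TNF-treated wildtype (335 cells), where levels were low, at 0.33 and 0.23.

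Interferon genes were read in very few cells. Ifnb1, the type I interferon beta, had 118 UMIs in 4 cells, all epithelial. The cell with most of them, a Progenitor.1 cell of untreated Tnfr2-/-, held 95 Ifnb1 and 6 Ifnl2 UMIs with 187 of Cxcl10 and a core level of 3420 CPM, which ranked 49 of 1023. In untreated wildtype a Progenitor.1 cell with 16 Ifnb1 UMIs had 2307 CPM of core genes (rank 23 of 1128) and another, with 4 Ifnb1, 1 Ifnl2 and 1 Ifnl3 UMI, had 9037 CPM (rank 1 of 1128). The remaining cell, of Progenitor.2 in TNF-treated Tnfr2-/-, had 3 Ifnb1 UMIs and 1791 CPM (rank 25 of 858). All 4 cells ranked in the highest 5% of their library by core level, and 3 of them were deep cells of 102169 to 123096 UMIs. The other ligands on the list were at 0 (the Ifna genes, Ifnab and Ifng) or near it: Ifnl2 7 UMIs in 2 cells, Ifnl3 1, Ifne 3, Ifnk 1 and Ifnz 20 UMIs in 20 cells. Cxcl10 was at 42.6, 20.4, 55.2 and 7.82 CPM in epithelium, where its 10 highest cells held 1422 of 2142, 281 of 843, 1749 of 2797 and 227 of 311 UMIs.

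The rest of the pathway was given by fixed lists, counted as above. How many genes of these lists reached 20 CPM in 1 library only was not counted, so their counts are descriptions too. Of the receptors and kinases 5 reached 20 CPM. In untreated Tnfr2-/- against wildtype epithelium 0 of 5 differed 2-fold and the median was -0.35, from Il10rb (-0.61) and Ifngr2 (-0.45) to Jak2 (0.21), and 0 of 5 differed in each of the other 3 comparisons. Of all genes 2.42% were higher and 3.59% lower in the first, and from 1.08% to 7.81% in each direction in the other 3. At such shares a count of 0 among so few genes does not show that they were unchanged. Below 20 CPM, and outside that count, Ifnar1 was at 13.3, 18, 16.2 and 16.9 CPM, Ifnar2 at 13.1, 17.4, 14.1 and 11.8 CPM and Ifnlr1 at 3.99, 3.53, 4.30 and 7.27 CPM. Of the factors and feedback genes 0 of 6 differed between the untreated genotypes (2.42% of all genes were higher and 3.59% lower). Their median was 0.07, with Irf2 (-0.30) and Trim24 (-0.05) at the low end and Stat3 at 0.23. Of the sensors and adaptors Tbk1 (0.29) and Adar (0.77) could be compared and did not reach 2-fold, and the kinase Ikbke was higher with TNF in wildtype (1.21), as were 2.54% of 5833 genes.

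Other interferon targets followed the list in part. In untreated Tnfr2-/- 5 of 13 were higher and 0 lower (2.42% and 3.59% of 6021 genes), with a median of 0.58 (all genes 0.11). Slfn2 (2.22) and Ifitm3 (1.34) led, and 1 of 13 was below 0, Epsti1 (-0.20). With TNF in Tnfr2-/- 5 of 13 were lower (7.81% of 6143 genes), led by Ifitm3 (-3.08) and Cxcl10 (-2.67). The 1 higher gene (5.55% of all genes were) was Isg20 (1.10), followed by Samd9l (0.95). With TNF 7 of 13 NF-kB targets were higher in wildtype (2.54% of 5833 genes), with a median of 1.15 (all genes 0.04). Ccl20 (3.11) and Tnf (2.17) led there. In Tnfr2-/- 3 of 15 were higher (5.55% of 6143 genes), with a median of 0.79 (all genes -0.12). In both genotypes 0 were lower (1.08% of all genes in wildtype and 7.81% in Tnfr2-/-). In untreated Tnfr2-/- 5 of 14 NF-kB targets were higher and 1 lower (2.42% and 3.59% of 6021 genes). Their median was 0.61 (all genes 0.11), from Tnf (1.64) and Ccl20 (1.63) to Nfkbia (-0.11) and Cxcl1 (-1.97). Cell cycle genes were lower with TNF in Tnfr2-/- epithelium for 15 of 16 (7.81% of 6143 genes), with a median of -1.89 (all genes -0.12). Birc5 (-2.38) and Ccna2 (-2.33) were the lowest. Within Progenitor.1 0 of 16 were lower with TNF (0.933% of 6002 genes). In untreated Tnfr2-/- epithelium 1 of 16 cell cycle genes was higher (2.42% of 6021 genes), with a median of 0.52 (all genes 0.11). Hells (1.03) and Top2a (0.86) led, and Tyms (-0.07) was the 1 below 0.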

How the data were processed

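Single-cell 3' libraries of 4 colonoid cultures were sequenced by the authors, 1 library per group. Per the submitters' processing notes and the methods of the study, reads were processed with Cell Ranger 5.0.0 on mm10, cells under 100 UMIs and doublets of epithelial and mesenchymal cells were removed with monocle3, and the authors deposited raw UMI counts per gene and cell with an annotation of 11 classes. No further doublet caller was run. The lowest cell had 894 UMIs, and 35 cells had no class.

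Here, counts were summed per library and compartment or class (at least 20 cells) and scaled to CPM with exact Poisson 95% intervals. Differences were taken on the log2(CPM + 1) scale, which understates those of low genes, and genes counted as different at 2-fold with at least 20 CPM in 1 library of the pair. With 1 library per group there were no tests. For carrying cells, cells were thinned to 5000 UMIs without replacement, and exact Clopper-Pearson intervals were used. A level of 3 counts corresponds to 0.0592 to 0.0754 CPM in epithelium and 0.0862 to 1.38 CPM in mesenchyme.

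Values were printed for every gene that reached 20 CPM in epithelium or mesenchyme, with intervals for the 12 of highest mean epithelial level and for those past 2-fold in both TNF or both genotype pairs. The other fixed lists were interferon ligands, receptors and kinases, factors and feedback genes, sensors and adaptors, other interferon targets, NF-kB targets and cell cycle genes, and each is given with its largest differences, except that 1 gene is not reported here. The genes and lists were chosen with earlier results of these data known. Alternatives were other pseudocounts, minimums, scalings (TMM from edgeR 4.0.16, median of ratios), cell sets, classes and depths. Promoter letters were searched in RefSeq windows, and 3' ends compared with BLAST 2.17.0. Python 3.11.15 with numpy 2.4.6, scipy 1.17.1 and pandas 2.3.3 was used, and the counting of differences was tested on simulated data.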

Additional observations from a re-analysis of the deposited data

Results flagged for a closer look

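The TNF difference pointed in opposite directions in the genotypes, with intervals that did not overlap within either genotype, for 4 of the 14 genes compared in epithelium (15.7% of all 5545 genes compared in the same way). This difference between differences was not tested, as each group was 1 library. Oasl1 was lower with TNF in wildtype (-0.88) and higher in Tnfr2-/- (0.17, a difference of 1.04 on the log2 scale), and Ifi27 likewise (-0.14 and 0.48, a difference of 0.62). Parp9 (0.20 and -0.25, a difference of -0.46) and Parp14 (0.27 and -0.49, a difference of -0.76) were higher in wildtype and lower in Tnfr2-/-. The mix of epithelial classes differed between these libraries too. Progenitor.1 and Progenitor.2 held 647 and 233 cells of untreated Tnfr2-/-, and 95 and 716 with TNF. Class and treatment therefore cannot be told apart in these pooled values.

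In pooled mesenchyme the same held for 9 of 33 genes (5.98% of 5956), all higher with TNF in wildtype and lower in Tnfr2-/-. The differences were -3.11 for Ifi44 (0.84 and -2.27), -1.81 for Parp14, -1.60 for Stat2, -1.59 for Irgm1, -1.50 for Zbp1, -1.43 for Gbp3, -1.22 for Ifit2, -1.15 for Ddx58 and -1.09 for Bst2. The mesenchymal classes differed between these libraries, so class and genotype cannot be told apart in these pooled values. Mesenchyme-Ptges alone held at least 20 cells of all 4 libraries (34, 304, 37 and 122), and its counts within the class are given above.

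The 31 cells of the untreated wildtype that the annotation put in no class, and that entered no comparison, held the core antiviral set at 685 CPM (650 to 721). They had 3787 CPM of the mesenchymal and 8927 CPM of the epithelial markers.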

How the results depend on the processing

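Of the counts past 2-fold, 82 of 112 values under alternatives stayed within 1.5 times, and 52 of 56 medians kept their direction. For single genes 265 of 308 values stayed at 2-fold or more in the same direction, whatever their size. The cause of the moves was not tested unless fewer cells or genes entered. For TNF in wildtype, the 1 lower gene became 0 with a pseudocount of 10 CPM, as a mean over cells (2 higher), without the 5% of cells of highest core level and without the 4 Ifnb1 cells, 2 with TMM, with median of ratios, with a minimum of 5 CPM and with none, 3 in Progenitor.1 and with both progenitor classes weighted equally, and 5 in Progenitor.2. For TNF in Tnfr2-/-, 8 lower genes became 5 (pseudocount 10), 18 (minimum 5 CPM), 21 (none), 15 (equal weights) and 16 (Progenitor.1). For the untreated genotypes, 10 higher genes became 6 (pseudocount 10, and without the top 5% of cells), 19 (minimum 5 CPM), 22 (none) and 4 (equal weights, and Progenitor.2). In Progenitor.2 the median turned to -0.020, Isg15 to -0.61, Oasl2 to -0.16 and Parp14 to -0.13. For the TNF-treated genotypes, 3 higher genes became 0 (pseudocount 10, Progenitor.1, Progenitor.2, equal weights) and 1 (without the top 5%), the 0 lower genes became 1 with a minimum of 5 CPM or none, and the median turned to -0.15 (Progenitor.1), -0.076 (Progenitor.2) and -0.090 (equal weights).

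Other scalings moved the median of all genes by more than 0.1 in each comparison, from 0.04 to -0.06 (TMM) for TNF in wildtype, -0.12 to 0.05 for TNF in Tnfr2-/-, 0.11 to -0.00 for the untreated and -0.10 to 0.08 for the TNF-treated genotypes, and the medians of the 42-gene list kept their direction. The shares of carrying cells were 19.8%, 15.1%, 35.2% and 26.0% at 10000 UMIs, 40.2%, 30.5%, 56.5% and 59.4% without thinning, 19.4%, 16.4%, 34.0% and 25.5% with at least 2 genes and 4.24%, 2.29%, 12.4% and 4.73% with at least 5, and untreated Tnfr2-/- was the highest except without thinning. Within classes they moved to 4.78% and 2.13% for the TNF libraries in Progenitor.1 and 26.8%, 21.1% and 28.0% for the first 3 libraries in Progenitor.2. The summed levels were 671, 588, 1249.8 and 799.7 CPM without Bst2 and Lgals3bp, and over the median cell 562, 602, 833 and 756 CPM for all 42 genes and 59.3, 39.4, 147 and 132 CPM for the core set.

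No paired analysis was possible because each group held replicate 1 only, and leaving out a library would have left a group empty. Leaving out the Ifnb1 cells and leaving out Secretory-Reg4-Ang4 were alternatives chosen after seeing the data, and the latter moved no count by over 1.5 times and turned no median. The Tnfr2-/- mesenchyme rests on 90 and 122 cells, the thinnest sums.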
